A study of Mus musculus with 17 samples.

Results

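The 9 genes described here encode the 4 Janus kinases of the mouse (Jak1, Jak2, Jak3 and Tyk2) and 5 signal transducers and activators of transcription (Stat3, Stat4, Stat5a, Stat5b and Stat6). They were picked by symbol from a table of 21683 rows of transcript levels. Of the rows, 10451 reached 1 TPM in at least 5 libraries and were tested, and all 9 genes were among them. TPM values are transcript levels corrected for transcript length and library total, so levels of different genes can be compared.

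RNA-seq was performed on 17 cultures of thioglycollate-elicited peritoneal macrophages, phagocytes that an irritant draws into the abdominal cavity. All mice were C57BL/6 and 8 weeks of age and received 1 mL of 3% thioglycollate, per the labels 3 days before collection. The cells attached for 4 hours and were then treated for 12 hours. F/F PBS (n = 6) and F/F Tat (n = 6) were cells of IKKβF/F mice, whose floxed Ikbkb gene is intact, given PBS or 100 nM of HIV protein Tat, a recombinant preparation of the viral transactivator made in bacteria. ΔMye Tat (n = 5) were cells of IKKβΔMye mice given the same Tat. In these mice Cre recombinase, expressed from the LysM locus, deletes floxed Ikbkb in myeloid cells, and IKKβ is the kinase that activates NF-κB. ΔMye cells given PBS were not analysed here, so what separates ΔMye Tat from F/F Tat may have been present before Tat was added. The labels do not say whether the cultures of a group came from separate mice. The p-values set differences against the spread between these libraries, which may not be the spread between mice.

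JAKs are tyrosine kinases bound to the inner tails of cytokine receptors. When a cytokine joins its receptor chains, the kinases phosphorylate the receptor and then STAT proteins, which dimerize, enter the nucleus and bind target genes. Negative regulators such as the SOCS proteins are themselves STAT targets and close the loop. In macrophages STAT3 is best known downstream of IL-6 and IL-10 family cytokines, STAT5 downstream of GM-CSF, STAT6 downstream of IL-4 and IL-13, and STAT4 downstream of IL-12. The activity of STAT proteins depends on phosphorylation, which transcript levels do not measure.

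Stat5b, Stat5a and Stat3 lie side by side on chromosome 11 (GRCm38, GENCODE M21). Stat5b (chr11:100780731-100850724, minus strand) and Stat5a (chr11:100859351-100885169, plus strand) are 8626 bp apart. Stat3 (chr11:100885098-100939540, minus strand) meets Stat5a tail to tail with an overlap of 72 bp. The other members are spread over the genome, with Jak1 at chr4:101152367-101265282 (minus), Jak2 at chr19:29251828-29313080 (plus), Jak3 at chr8:71676296-71690575 (plus), Tyk2 at chr9:21104068-21131243 (minus), Stat4 at chr1:51987148-52107189 (plus) and Stat6 at chr10:127642986-127660957 (plus). Levels of the STAT5 pair share some sequence, since 11.5% of the 31-base words of Stat5a transcripts occur in Stat5b and 15.1% of those of Stat5b occur in Stat5a. For Stat4, 23.7% of the words also occur in Gm28177, a transcript on the same strand, so its level is less certain than that of Jak2 (0%), Jak1 (0.0273%) or Stat6 (0.226%). Tyk2 shares 8.78% of its words with other genes, mostly 1700084C06Rik on the opposite strand (7.51%). Jak3 shares 8.29%, mostly with Insl3 on the same strand (6.92%), and Stat3 shares 2.36%.

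The promoters of the 4 genes that were higher with Tat and of Stat6, which was lower as deposited and scaled, are printed below as given by RefSeq for GRCm38.p6, 250 bases before the start to 50 after it, 5′ to 3′ on the strand of the gene. All 9 genes had an entry, and Stat4, Stat5a and Stat5b had 2 each, 12 in all. For Stat4 and Stat5a the downstream start is printed because it held a match, and the upstream ones (chr1:51986898-51987197 and chr11:100859406-100859705) held none and are not shown. Both strands were searched for the STAT site TTCNNNGAA, its longer form TTCNNNNGAA that STAT6 prefers, the interferon element core GAAANNGAAA and the κB consensus, and capitals mark every match. Among all 32851 promoters of the table, 8.30%, 6.95%, 3.44% and 4.51% held these letters, respectively.
Jak2 (chr19:29251553-29251852, plus strand): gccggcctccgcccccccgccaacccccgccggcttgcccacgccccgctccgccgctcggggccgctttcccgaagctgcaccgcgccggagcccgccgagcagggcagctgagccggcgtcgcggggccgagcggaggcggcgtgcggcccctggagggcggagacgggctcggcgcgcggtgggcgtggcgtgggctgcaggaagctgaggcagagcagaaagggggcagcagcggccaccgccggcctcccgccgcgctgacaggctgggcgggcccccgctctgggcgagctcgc
Stat3 (chr11:100939491-100939790, minus strand): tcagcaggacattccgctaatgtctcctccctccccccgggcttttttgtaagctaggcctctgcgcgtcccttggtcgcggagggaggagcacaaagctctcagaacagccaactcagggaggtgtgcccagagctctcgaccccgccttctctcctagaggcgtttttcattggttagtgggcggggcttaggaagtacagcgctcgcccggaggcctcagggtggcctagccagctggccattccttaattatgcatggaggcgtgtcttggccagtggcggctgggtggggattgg
Stat4, downstream start (chr1:52007990-52008289, plus strand): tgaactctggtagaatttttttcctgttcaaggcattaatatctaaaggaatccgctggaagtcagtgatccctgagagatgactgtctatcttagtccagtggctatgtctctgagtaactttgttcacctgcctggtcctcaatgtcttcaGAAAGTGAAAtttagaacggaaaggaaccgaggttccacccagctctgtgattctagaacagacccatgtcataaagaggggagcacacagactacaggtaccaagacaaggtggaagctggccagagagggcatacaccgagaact
Stat5a, downstream start (chr11:100860234-100860533, plus strand): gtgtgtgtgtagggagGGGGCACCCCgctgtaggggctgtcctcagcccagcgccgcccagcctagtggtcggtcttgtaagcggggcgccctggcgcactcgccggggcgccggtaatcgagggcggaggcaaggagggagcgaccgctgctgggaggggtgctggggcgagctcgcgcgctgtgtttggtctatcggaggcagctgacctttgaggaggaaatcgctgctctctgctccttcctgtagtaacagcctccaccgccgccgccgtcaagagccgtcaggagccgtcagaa
Stat6 (chr10:127642736-127643035, plus strand): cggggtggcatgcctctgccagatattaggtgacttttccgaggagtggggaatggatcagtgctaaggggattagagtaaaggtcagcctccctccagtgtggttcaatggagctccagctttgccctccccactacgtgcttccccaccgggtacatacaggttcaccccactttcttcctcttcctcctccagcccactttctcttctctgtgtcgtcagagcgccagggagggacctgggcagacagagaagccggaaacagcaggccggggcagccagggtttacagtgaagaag
Of the 12 promoters, 2 held a match. The interferon element core stood 97 bases before the downstream start of Stat4, and a κB match began 234 bases before the downstream start of Stat5a. None of the 12 held either STAT site, which says only that these letters are not within these windows.

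Across the series, the cells carried the transcripts of macrophages, with all 8 macrophage markers above 1 TPM on average in every group, and their summed level was 25796 to 26807 TPM in F/F PBS, 10310 to 10890 in F/F Tat and 8019 to 8344 in ΔMye Tat. Most of this was Lyz2, and the sum of the other 7 markers was 3984 ± 145 TPM (SD, n = 6), 3517 ± 77.6 (n = 6) and 3815 ± 54.2 (n = 5). The targeted gene Ikbkb was 12.8 to 19.9 TPM in ΔMye Tat and 21.6 to 25.4 in F/F Tat, with no overlap (log2 difference -0.51, SE 0.08, limma adjusted p = 4.51e-05), so Ikbkb transcripts were reduced and not absent. Lyz2, whose locus carries the Cre, was 4333 ± 178 TPM (SD, n = 5) against 6993 ± 149 (n = 6). TPM as deposited shifted as a whole between groups. The median log2 difference over all tested genes was -0.65 with Tat in F/F cells and 0.22 for ΔMye Tat against F/F Tat. Values were therefore also scaled by the median ratio to a common reference, which brings these medians to -0.03 and 0.01. Scaled values are given beside those as deposited for the members and the list counts. Marker levels and sums are as deposited except where a scaled value is named. A ratio of genes within a library does not depend on the scaling. Marker sums of other cell types are given beside the comparisons of the members, and in bulk samples fewer cells of a type and less RNA per cell cannot be told apart.

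In F/F PBS macrophages Stat6 (88.4 ± 4.09 TPM, SD, n = 6) and Jak1 (87.5 ± 6.56) were the most abundant members, and their ranges overlapped. Stat3 (45.0 ± 2.003) and Jak2 (36.3 ± 1.99) followed, then Tyk2 (21.1 ± 1.65) and Stat5b (18.3 ± 1.29), whose ranges overlapped although Tyk2 was above Stat5b in each of the 6 libraries. Stat5a (14.5 ± 0.857), Jak3 (7.45 ± 0.475) and Stat4 (1.81 ± 0.154) closed the order, each apart from its neighbour. With Tat the order was Jak2, Stat3, Jak1, Stat5a, Stat6, Tyk2, Stat5b, Jak3 and Stat4, and among neighbours only Tyk2 and Stat5b overlapped. ΔMye Tat kept this order except that Jak1 stood above Stat3, in 4 of 5 libraries and with overlapping ranges, and Tyk2 and Stat5b again overlapped.

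**Figure D1:**
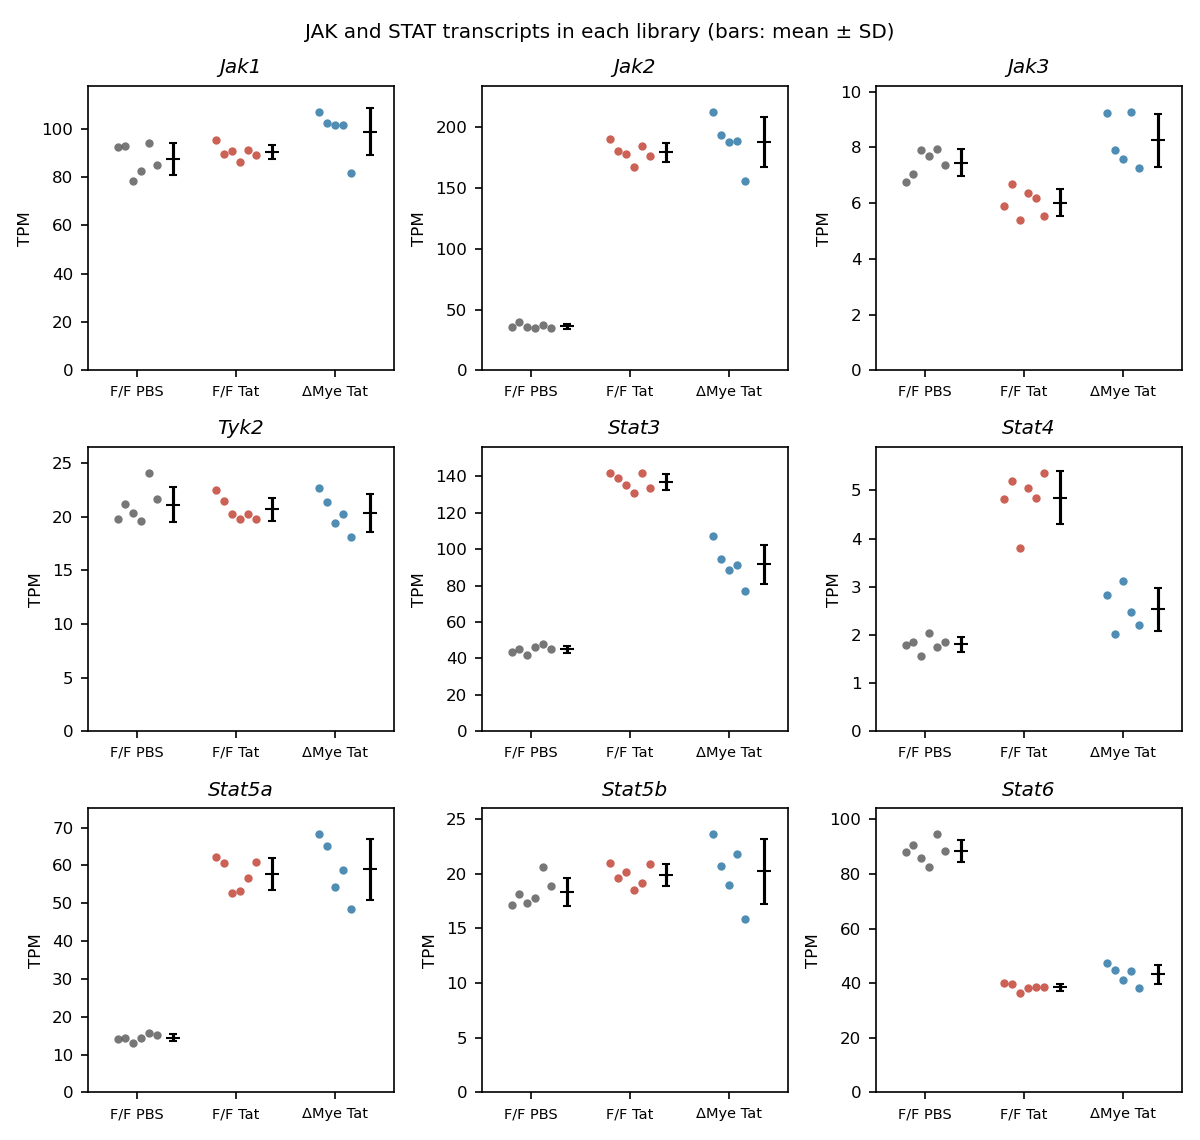
TPM of each of the 9 genes (vertical axes, from 0) in every library of F/F PBS (n = 6), F/F Tat (n = 6) and ΔMye Tat (n = 5), as deposited; points are libraries and bars the mean ± SD. Jak2, Stat3, Stat4 and Stat5a stand higher with Tat than with PBS in F/F cells without overlap, Stat6 and Jak3 stand lower (Jak3 higher after scaling), and Stat3 and Stat4 stand lower in ΔMye Tat than in F/F Tat.

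The first comparison set the F/F groups given Tat and PBS against each other and asks what Tat did to macrophages with intact IKKβ. Jak2, the kinase of receptors for GM-CSF, IL-12 and interferon-γ, rose 4.94-fold in mean TPM, Stat5a 3.99-fold, Stat3 3.04-fold and Stat4 2.68-fold. Stat6 fell to 0.436 of its level in PBS. Of the 9 genes, 4 were higher and 2 lower at a limma adjusted p under 0.01, against 17% and 67.6% of all tested genes, and 3 (Jak2, Stat5a and Stat3) were higher with a fold change over 3, which 5.21% of the tested genes were, while 19.4% and none of the 9 were lower by this fold. Stat3, at 3.04-fold, stood close to the fold threshold (95% interval of its log2 difference 1.49 to 1.72). After scaling, 8 of the 9 were higher and 1, Stat6, was lower, against 37.3% and 38% of the tested genes. The median log2 difference of the 9 was 0.12 as deposited and 0.75 scaled.

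Among the kinases, Jak1, which pairs with Jak2, Jak3 or Tyk2 on many receptors, was 78.2, 88.7 and 94.2 TPM (lowest, median and highest) in F/F PBS and 86.0, 90.1 and 95.2 in F/F Tat. The groups overlapped, with a log2 difference of 0.05 (95% interval -0.07 to 0.17, adjusted p = 0.437), and after scaling Jak1 was higher by 0.68 (adjusted p = 1.79e-11). Its percentile among the tested genes moved little, from a median of 87.2 to 88.4. Jak2 was 34.7, 35.6 and 40.0 TPM in F/F PBS and 167, 179 and 190 in F/F Tat. Every Tat library was thus far above every PBS library, with a log2 difference of 2.30 (SE 0.06, adjusted p = 3.95e-18) that was 2.93 scaled. The gene went from percentile 72.3 of the tested genes to percentile 93.4 (medians).

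Jak3, the kinase that binds the common γ chain Il2rg, was 6.76, 7.53 and 7.93 TPM in F/F PBS and 5.41, 6.04 and 6.69 in F/F Tat. All Tat libraries were below all PBS libraries as deposited (log2 difference -0.31, SE 0.08, adjusted p = 0.00117), but scaling turned the direction, to 0.32 (adjusted p = 4.43e-04). Tyk2, a partner of Jak1 and Jak2 on receptors for type I interferon and IL-12, was 19.6, 20.8 and 24.1 TPM in F/F PBS and 19.8, 20.3 and 22.5 in F/F Tat. Its groups overlapped, at a log2 difference of -0.03 as deposited (95% interval -0.15 to 0.10, adjusted p = 0.669) that became 0.60 after scaling (adjusted p = 2.75e-10).

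Stat3 was 42.2, 45.1 and 48.0 TPM in F/F PBS and 131, 137 and 142 in F/F Tat, with a log2 difference of 1.60 (SE 0.06, adjusted p = 9.26e-16, 2.24 scaled). Stat5a was 13.2, 14.4 and 15.7 TPM in F/F PBS and 52.8, 58.7 and 62.3 in F/F Tat, a difference of 1.99 (SE 0.07, adjusted p = 1.89e-15, 2.62 scaled). Neither gene had overlapping groups. Its close copy Stat5b was 17.1, 18.0 and 20.6 TPM in F/F PBS and 18.5, 19.9 and 21.003 in F/F Tat. These groups overlapped, and the log2 difference of 0.12 (95% interval -0.04 to 0.28) did not pass as deposited (adjusted p = 0.141) and was 0.75 scaled (adjusted p = 5.91e-10). The STAT5 genes, which encode closely related proteins, therefore stood in a different order with Tat, Stat5b above Stat5a in PBS and far below it in Tat.

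Stat6, which carries the IL-4 and IL-13 signal, was 82.7, 88.3 and 94.7 TPM in F/F PBS and 36.3, 38.6 and 39.9 in F/F Tat. No library of one group reached the other, and Stat6 was the one member lower both as deposited (log2 difference -1.19, SE 0.05, adjusted p = 7.71e-15) and scaled (-0.56, adjusted p = 1.04e-11). Stat4, mainly known from T and NK cells and from activated dendritic cells and macrophages, was the scarcest member, at 1.56, 1.82 and 2.03 TPM in F/F PBS and 3.81, 4.94 and 5.37 in F/F Tat. Its groups did not overlap, at a log2 difference of 1.37 (SE 0.11, adjusted p = 9.01e-10, 1.98 scaled). In all, 4 members were higher and 2 lower without overlap between the groups, as were 15.3% and 62.4% of the tested genes.

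Markers of T, NK and dendritic cells bear on Stat4. The summed level of 8 NK markers was 6.81 to 12.4 TPM in F/F PBS and 35.5 to 40.2 in F/F Tat, and that of 7 dendritic cell markers was 7.04 to 15.8 and 41.4 to 46.2. Without Klrk1 the NK sum was 5.16 to 10.7 in F/F PBS and 5.95 to 8.59 in F/F Tat, and without Ccr7 the dendritic sum was 1.13 to 2.19 and 1.31 to 1.94. The other members of both lists went both ways. Prf1 of the NK list (0.51 and 1.67 TPM on average) and Zbtb46 of the dendritic list (0.47 and 0.98) were higher in F/F Tat without overlap. Klrb1c (0.86 and 0.18) and Klra8 (1.06 and 0.35) of NK cells and Cd209a of dendritic cells (0.40 and 0.04) were lower without overlap. The defining NK gene Ncr1 (0.80 and 0.48) and Flt3 of dendritic cells (0.53 and 0.22) overlapped. Of 14 markers of T cells and innate lymphoid cells, 10 had a lower mean in F/F Tat as deposited. Of all tested genes, 67.6% were lower at a limma adjusted p under 0.01, and the median log2 difference was -0.65. The sum of the 14 was 160 to 181 and 154 to 169, most of it Il7r. Among them Tbx21 (0.36 and 1.48 TPM) was higher and Cd2 (3.02 and 1.59) lower without overlap. After scaling, the log2 difference of Cd2 did not pass (-0.26, limma adjusted p = 0.220). None of these markers was at 0 in all libraries of a group. The part of other cell types in the level of Stat4 was not tested.

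**Figure D2:**
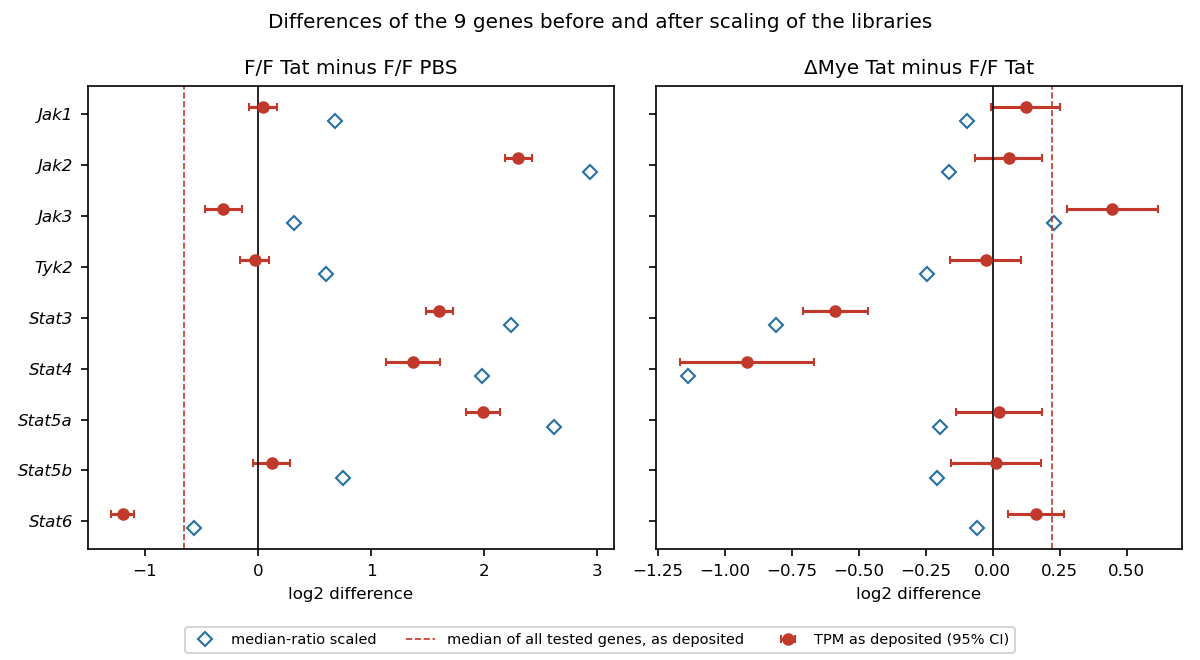
Log2 difference of each gene between Tat and PBS in F/F cells (left) and between ΔMye Tat and F/F Tat (right); filled points are TPM as deposited with 95% intervals from limma, open diamonds are median-ratio scaled values, and the dashed line is the median of all tested genes. Jak2, Stat3, Stat4 and Stat5a lie right of 0 on the left panel under both scalings and Stat6 lies left of it, while Jak3 and Tyk2 lie left of 0 as deposited and right of it scaled.

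Ratios within a library gave the same comparison free of scaling, and 6 ratios were compared 3 ways by a two-sided exact permutation test, with Benjamini-Hochberg adjustment for the 18 tests made (smallest exact p 0.00216 for 6 against 6 libraries and 0.00433 for 6 against 5). Jak2 stood at 0.417 ± 0.0237 of Jak1 in F/F PBS and at 1.98 ± 0.0315 times Jak1 in F/F Tat. This log2 difference of 2.25 (adjusted exact p = 0.00779) showed no overlap. Jak3 fell against Jak1 by 0.35 on the log2 scale (adjusted exact p = 0.0106, overlapping), whereas Tyk2 to Jak1 differed by -0.08 (adjusted exact p = 0.175). Stat3 stood at 0.510 ± 0.0243 of Stat6 in F/F PBS and at 3.55 ± 0.118 times Stat6 in F/F Tat, a log2 difference of 2.80. The ratio of Stat5a to Stat5b went from 0.792 ± 0.0262 to 2.89 ± 0.155 (log2 difference 1.87), and that of Stat4 to Stat6 from 0.0216 ± 0.00231 to 0.128 ± 0.0117 (2.56). These last 3 ratios had no overlap and the smallest p the design allows (adjusted exact p = 0.00779).

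**Figure D3:**
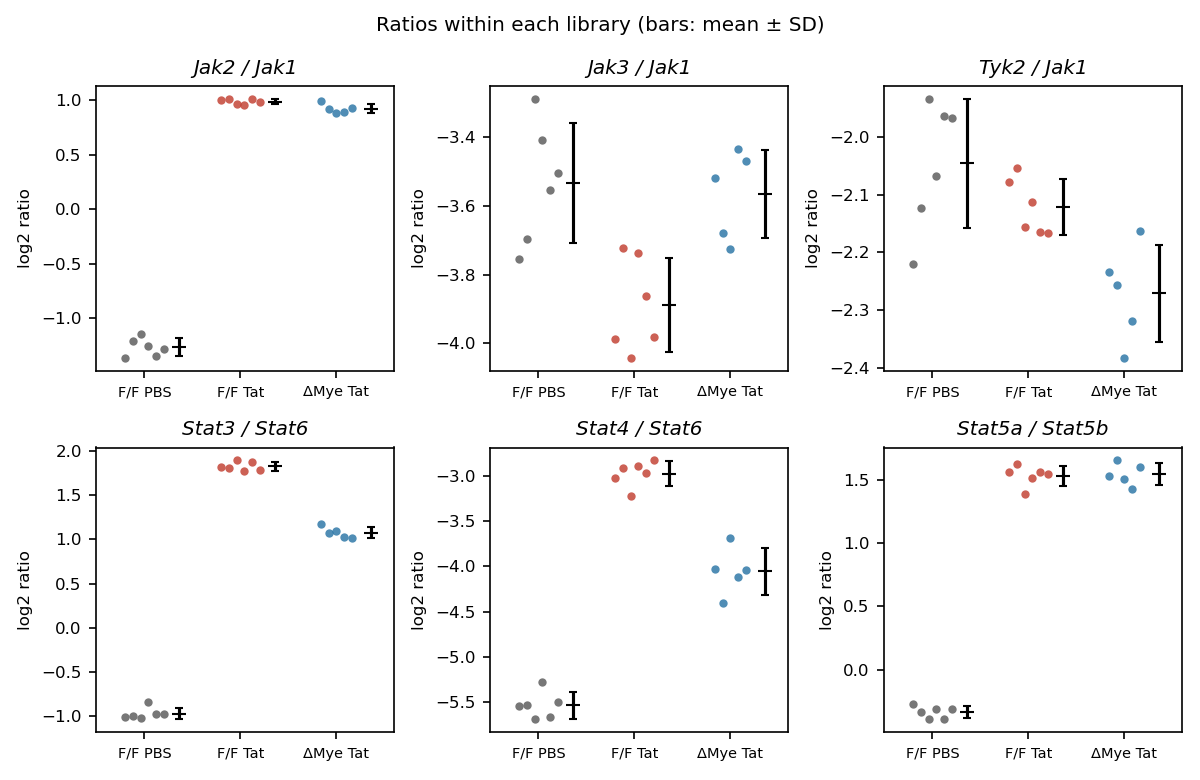
Log2 ratio of 6 gene pairs within each library (vertical axes, TPM + 0.1) by group; points are libraries and bars the mean ± SD. The ratios Jak2/Jak1, Stat3/Stat6, Stat4/Stat6 and Stat5a/Stat5b are separate between PBS and Tat in F/F cells, and Stat3/Stat6 and Stat4/Stat6 of ΔMye Tat lie between both F/F groups.

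The make-up of each transcript pool changed accordingly. The summed TPM of the 4 kinases was 152 ± 8.78 in F/F PBS and 296 ± 11.6 in F/F Tat. Jak1 made up 57.4% ± 1.46 of this sum in F/F PBS and Jak2 23.8% ± 0.896, and in F/F Tat Jak2 made up 60.5% ± 0.382 and Jak1 30.5% ± 0.345. Among the 5 STAT genes Stat6 held 52.6% ± 1.08 of the sum in F/F PBS and 14.9% ± 0.309 in F/F Tat. Stat3 took 26.8% ± 0.732 and then 53.1% ± 1.14, and Stat5a 8.61% ± 0.254 and then 22.4% ± 0.927.

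**Figure D4:**
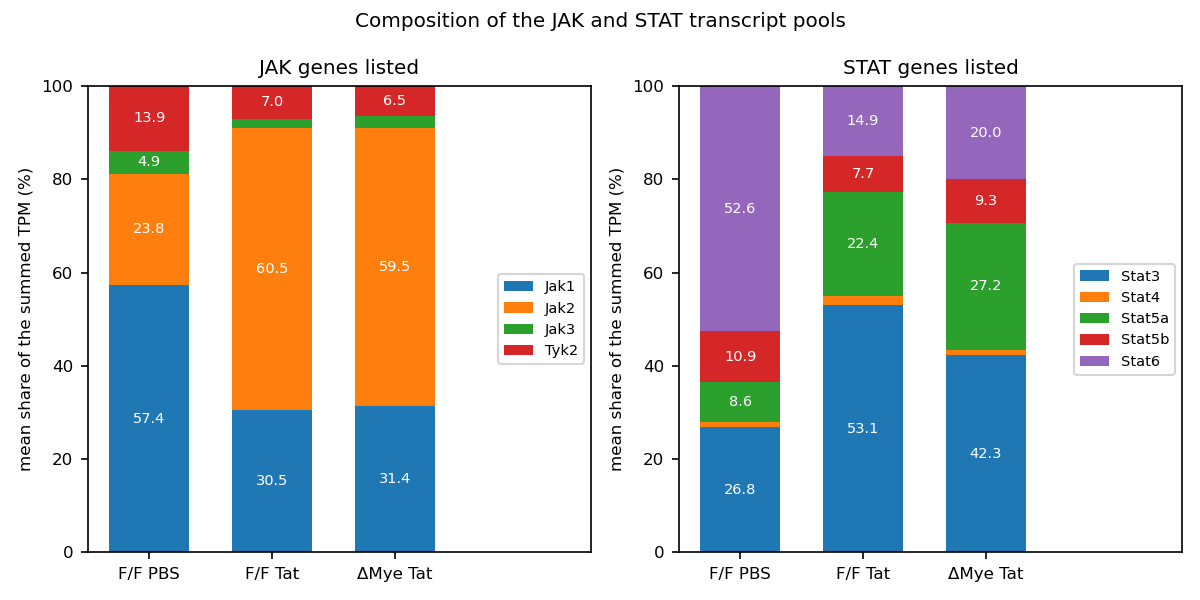
Mean share (%) of each gene in the summed TPM of the 4 JAK genes (left) and of the 5 STAT genes listed (right) in F/F PBS (n = 6), F/F Tat (n = 6) and ΔMye Tat (n = 5); segments of 4% or less carry no figure. Jak1 and Stat6 hold the largest shares in F/F PBS, and Jak2 and Stat3 in both Tat groups.

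The second comparison, ΔMye Tat against F/F Tat, asks how the transcripts differed when myeloid IKKβ was deleted. It shares the F/F Tat libraries with the first, so the values of each are set side by side and no relation between them is drawn. Stat3 and Stat4 were lower in ΔMye Tat, to 0.669 and 0.522 of their F/F Tat means. Jak2 and Stat5a, the members with the largest fold changes with Tat, differed from F/F Tat by less than the spread of the libraries as deposited. Of the 9 genes, 2 (Jak3 and Stat6) were higher and 2 lower, against 38.8% and 8.87% of all tested genes, and after scaling none was higher and 4 (Jak2, Tyk2, Stat3 and Stat4) were lower, against 15.9% and 19.4%.

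Stat3 was 107, 94.3, 88.4, 91.0 and 77.3 TPM in the 5 ΔMye Tat libraries (numbered 19 to 23), all below the lowest F/F Tat value of 131. The log2 difference was -0.59 (SE 0.06, adjusted p = 9.01e-08) and -0.81 scaled (adjusted p = 1.83e-11), and ΔMye Tat remained above F/F PBS by 1.02 (adjusted p = 4.96e-12). Stat4 was 2.82, 2.02, 3.12, 2.47 and 2.22 TPM, below the lowest F/F Tat value of 3.81, with a log2 difference of -0.92 (SE 0.12, adjusted p = 2.73e-06, -1.14 scaled). All but 2.02 lay above the highest F/F PBS value, and the difference to F/F PBS was 0.45 (SE 0.12, adjusted p = 0.0019). The NK and dendritic sums, at 20.99 to 27.8 and 22.4 to 27.0 TPM, were also between those of the F/F groups, and without Klrk1 and Ccr7 they were 7.20 to 9.80 and 0.884 to 1.58. Their part in the level of Stat4 was not tested.

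Jak2 was 212, 193, 188, 189 and 156 TPM in ΔMye Tat, on both sides of the F/F Tat range. The log2 difference of 0.06 (95% interval -0.07 to 0.18, adjusted p = 0.400) turned to -0.16 after scaling (adjusted p = 0.00386). Stat5a, at 68.3, 65.3, 54.2, 58.9 and 48.5 TPM, also spanned the F/F Tat range, with a difference of 0.02 (95% interval -0.14 to 0.18, adjusted p = 0.800) that scaling turned to -0.20 (adjusted p = 0.0127). Stat5b was 15.9 to 23.6 TPM with a median of 20.7, a difference of 0.01 (95% interval -0.15 to 0.18, adjusted p = 0.902) and of -0.21 scaled (adjusted p = 0.01002). Jak1 was 81.6 to 107 TPM with a median of 101, 0.12 from F/F Tat as deposited (95% interval -0.01 to 0.25, adjusted p = 0.0906) and -0.10 scaled (adjusted p = 0.0837). Without the lowest library, number 23, the difference was 0.19 and passed (adjusted p = 0.00236). Tyk2 was 18.1 to 22.7 TPM with a median of 20.2, and its difference of -0.03 (95% interval -0.16 to 0.11, adjusted p = 0.742) was -0.25 after scaling (adjusted p = 3.05e-04).

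Jak3 was 9.23, 7.91, 7.58, 9.28 and 7.27 TPM in ΔMye Tat, all above the highest F/F Tat value of 6.69. Its log2 difference was 0.45 (SE 0.08, adjusted p = 1.25e-04) as deposited and 0.23 scaled (adjusted p = 0.0175), which no longer passed. Beside it, 13 of the 14 markers of T cells and innate lymphoid cells had a higher mean in ΔMye Tat than in F/F Tat as deposited. Of all tested genes, 38.8% were higher at a limma adjusted p under 0.01. The sum of the 14 markers was 170 to 182 against 154 to 169 TPM, and without Il7r it was 21.9 to 25.1 against 11.5 to 12.9. The part of lymphocytes in the level of Jak3, a gene abundant in them, was not tested. Stat6 was 47.5, 44.7, 41.3, 44.6 and 38.2 TPM, overlapping F/F Tat, with a difference of 0.16 (SE 0.05, adjusted p = 0.00899) that scaling turned to -0.06 (adjusted p = 0.192). This call was lost when any of 12 of the 17 libraries was left out (adjusted p 6.49e-04 to 0.0331). Without overlap, Jak3 was higher and Stat3 and Stat4 were lower, and 28.6% of the tested genes were higher and 8.01% lower in that way.

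Marker sums of other cell types differed between the Tat groups as well. The sum of 8 neutrophil markers was 52.7 to 61.2 TPM in F/F PBS, 65.7 to 77.7 in F/F Tat and 87.7 to 105.6 in ΔMye Tat. Nearly all of it was S100a8, at 53.8, 68.6 and 91.4 TPM on average. S100a9 was 1.15, 0.84 and 0.72 TPM, and S100a9, Ly6g, Cxcr2, Mpo and Camp overlapped between the Tat groups. Elane and Ngp of the same list were at 0 in every library. For 9 markers of mast cells and eosinophils the sum was 33.8 to 47.04, 32.3 to 44.6 and 24.5 to 31.5 TPM, with Prg2 at 0 throughout F/F PBS and Epx throughout both Tat groups. Sums of 6 B cell markers were 13.7 to 27.7, 12.6 to 17.2 and 9.38 to 14.3 TPM, and those of 5 mesothelial markers were 2.83 to 4.75, 1.91 to 3.40 and 0.999 to 1.81. Between the Tat groups the neutrophil sum as deposited, through S100a8, was thus higher in ΔMye Tat without overlap, as were 28.6% of the tested genes. S100a8 was higher by 0.41 on the log2 scale (limma adjusted p = 1.07e-05). After scaling it was higher by 0.19 and did not pass (adjusted p = 0.0345). The mast cell and mesothelial sums were lower without overlap, as were 8.01% of the tested genes. The B cell sum overlapped. The part of these cells in the levels of the members was not tested.

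Within libraries, Stat3 stood at 2.11 ± 0.0934 times Stat6 in ΔMye Tat (n = 5) against 3.55 ± 0.118 in F/F Tat (n = 6), a log2 difference of -0.75 with no overlap (adjusted exact p = 0.00779). The ratio of Stat4 to Stat6 was lower by 1.08 on the log2 scale without overlap, at the same p. Stat5a to Stat5b was 2.92 ± 0.175 against 2.89 ± 0.155 (log2 difference 0.01, adjusted exact p = 0.818). Jak2 to Jak1 was 1.90 ± 0.0538 against 1.98 ± 0.0315 (-0.06, adjusted exact p = 0.0208, overlapping), Jak3 to Jak1 was higher by 0.32 (adjusted exact p = 0.0120) and Tyk2 to Jak1 was -0.15 from F/F Tat (adjusted exact p = 0.0167). Of the pools, Stat3 made up 42.3% ± 0.695 of the STAT sum, Stat6 20.02% ± 0.728 and Stat5a 27.2% ± 0.955, while Jak2 made up 59.5% ± 0.554 of the JAK sum.

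Library 23 of ΔMye Tat was the lowest of its group for 8 of the 9 genes and for Ikbkb, and library 19 was the highest for 7. Scaling narrowed this spread, for Jak2 from an SD of 20.4 to 13.96 TPM. Against F/F PBS, ΔMye Tat was higher for 4 of the 9 genes (Jak2, Stat3, Stat4 and Stat5a) and lower for 1 (Stat6). As deposited, 17.5% of the tested genes were higher and 58.8% lower. Scaling gave 8 of the 9 higher and 1 lower, beside 3530 and 3539 of the 10451 tested genes. Jak2 stood 2.36 above F/F PBS on the log2 scale and Stat5a 2.01, and Stat6 was -1.03 from it.

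Around the members, the negative regulators moved in both directions with Tat. Of 18 genes 6 rose and 7 fell (12 and 2 after scaling). Each list count with Tat stands beside 17% of all tested genes that were higher and 67.6% lower (37.3% and 38% scaled). Cish, a SOCS family member that STAT5 induces, went from 2.47 ± 0.713 to 66.5 ± 1.15 TPM (log2 difference 4.74, 5.36 scaled). Socs3, the brake on IL-6 receptor signalling, rose from 53.0 ± 1.69 to 680 ± 14.3 TPM (3.68), and Socs1, which blocks JAK catalysis, from 6.99 ± 0.667 to 66.7 ± 1.99 (3.24). Ptpn2 (1.12), Socs2 (0.86) and the phosphatase CD45 gene Ptprc (0.24) also rose. Pias3 (-1.38) and Socs5 (-1.07) fell both as deposited and scaled, and Socs6 (-0.88), Sh2b3 (-0.75), Socs4 (-0.64), Ptpn6 (-0.35) and Ptpn1 (-0.19) fell as deposited, of which Ptpn6 and Ptpn1 were higher after scaling. In ΔMye Tat against F/F Tat 6 of the 18 were higher and none lower (1 and 3 after scaling), where 38.8% of all tested genes were higher and 8.87% lower (15.9% and 19.4% scaled). Ptpn6, the phosphatase SHP-1, was 249 ± 14.04 against 161 ± 4.90 TPM (log2 difference 0.62, 0.40 scaled), and Sh2b3 (0.46) and Socs1 (0.41) were higher as deposited only, since scaling left 0.24 (adjusted p = 0.0886) and 0.19 (adjusted p = 0.0326). Socs3 (-0.02, adjusted p = 0.578) did not pass as deposited and was lower after scaling (-0.25, adjusted p = 1.32e-05), and Cish (-0.18, adjusted p = 0.268) did not pass as deposited.

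Receptor chains that carry JAKs were tested in 27 of 40 cases, of which 14 rose and 7 fell with Tat (21 and 4 scaled). Among the 27, 2 were below 1 TPM on average in F/F PBS, which tilts this count towards higher. Il15ra, the IL-15 receptor α chain, rose from 7.66 ± 1.53 to 130 ± 7.17 TPM, and the common γ chain Il2rg from 254 ± 5.32 to 382 ± 9.74. By contrast Il6ra, the ligand-binding chain for IL-6, fell from 15.7 ± 1.17 to 1.20 ± 0.233 TPM (log2 difference -3.62, -3.01 scaled) and Ifngr1 from 69.2 ± 3.05 to 18.2 ± 0.454 (-1.92, -1.29 scaled). In ΔMye Tat 10 chains were higher and 5 lower than in F/F Tat (5 and 11 scaled), beside the same 38.8% and 8.87% of all tested genes (15.9% and 19.4% scaled). Ifngr1 was higher there (30.8 ± 1.05 TPM, log2 difference 0.76) as was Il11ra1 (0.54), and Il15ra (-0.75) and Il2rg (-0.28) were lower.

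Ligands of these receptors were tested for 16 of 34 genes, and all 16 were higher with Tat under both scalings. This count is not evidence about the list, since 7 of the 16 were below 1 TPM in F/F PBS and passed the filter only through the Tat groups, and 18 did not pass. Il6 was 9.55 ± 1.24 TPM in F/F PBS and 3393 ± 180 in F/F Tat (log2 difference 8.47), Csf3, which encodes G-CSF, 1.56 ± 0.243 and 363 ± 24.1 (7.78), and Csf2, which encodes GM-CSF, 0.746 ± 0.173 and 147 ± 19.6 (7.45). In ΔMye Tat 11 ligands were lower than in F/F Tat and 1 was higher (13 and 1 scaled), beside 8.87% and 38.8% of all tested genes (19.4% and 15.9% scaled). The same 7 ligands are in this count, so it is not evidence about the list either. None of the 16 was below 1 TPM on average in both F/F PBS and ΔMye Tat. Il22, however, had a median of 0.98 TPM in ΔMye Tat and passed the filter only through F/F Tat. Il22 was listed at 0 in each of the 6 PBS libraries, was 17.1 ± 0.936 TPM in F/F Tat and was 1.17 ± 0.407 in ΔMye Tat. Il19 was 14.5 ± 1.89 and 1.68 ± 0.284 TPM in the Tat groups, and Il12b, the shared subunit of IL-12 and IL-23, was the one that was higher, at 391 ± 17.6 and 638 ± 55.9.

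Genes described as STAT targets were listed from general knowledge and are controlled by other factors too. Each of their counts between the Tat groups stands beside 8.87% of all tested genes that were lower and 38.8% higher (19.4% and 15.9% scaled). Of 16 STAT3 targets 11 rose and 4 fell with Tat (13 and 2 scaled), with Pim1 (2.22) and Fosl2 (2.06) among the highest after Socs3, and Vegfa lowest (33.1 ± 4.53 to 8.40 ± 1.06 TPM). In ΔMye Tat 6 were lower and 1 higher than in F/F Tat (14 and 0 scaled), among them Hif1a (114 ± 7.54 against 193 ± 10.2 TPM) and Nfil3 (-0.35), while Batf was higher by 0.17 as deposited and -0.05 from it scaled. Of 9 STAT5 targets 6 rose and 1 fell (8 and 1 scaled), led by the cyclin gene Ccnd2 (1.93 ± 0.270 to 69.5 ± 3.96 TPM), with Osm (3.25) and Cish, and Id2 fell (-1.10). Among the 9, 1 was below 1 TPM on average in F/F PBS, which tilts this count towards higher. Osm (-0.84) and Bcl6 (-0.68) were lower and Id2 (0.85) was higher in ΔMye Tat, where 4 were lower and 1 higher in all (6 and 1 scaled).

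Of 16 STAT6 targets tested, 6 rose and 9 fell with Tat (8 and 7 scaled), where 17% of all tested genes were higher and 67.6% lower (37.3% and 38% scaled). The fallers included Pparg, a lipid-sensing nuclear receptor (26.0 ± 1.42 to 0.947 ± 0.407 TPM), the lectin gene Clec10a (17.8 ± 1.49 to 3.09 ± 0.611) and arginase Arg1 (40.6 ± 3.51 to 9.45 ± 0.552). In the other direction the chemokines Ccl17 (0.334 ± 0.201 to 10.5 ± 3.36 TPM) and Ccl22 (5.80 ± 1.52 to 121 ± 6.42) rose, although they stand on the same list. Ccl17 was below 1 TPM in F/F PBS and passed the filter only through the Tat groups, which tilts the count with Tat towards higher. In ΔMye Tat 3 of the 16 STAT6 targets were higher and 4 lower than in F/F Tat (2 and 7 scaled). Of all tested genes, 38.8% were higher and 8.87% lower (15.9% and 19.4% scaled). Arg1 (0.54, 0.32 scaled) was higher and Retnla (-1.05) lower. Ccl22 was higher as deposited (0.49) but did not pass after scaling (0.27, adjusted p = 0.0811).

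**Figure D5:**
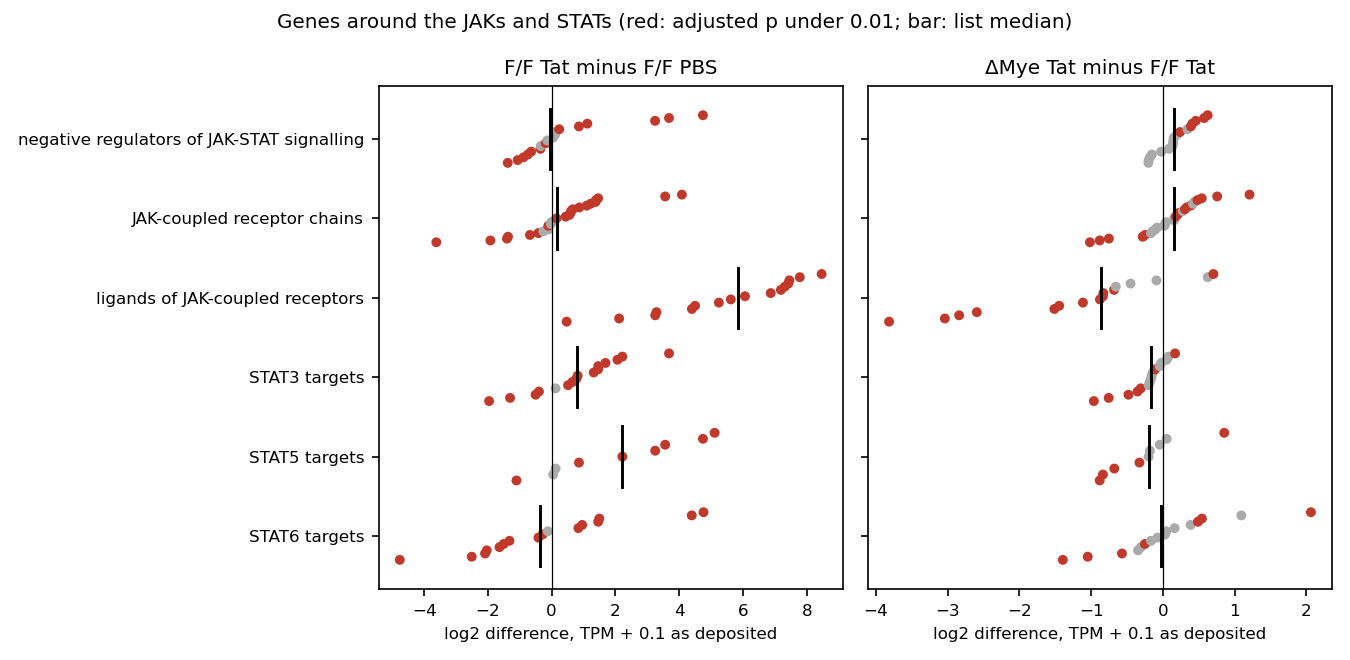
Log2 difference (TPM + 0.1 as deposited) of every tested gene of 6 lists around the JAKs and STATs, between Tat and PBS in F/F cells (left) and between ΔMye Tat and F/F Tat (right); red points passed at a limma adjusted p under 0.01, grey did not, and bars are list medians. Ligands lie furthest right on the left panel and mostly left of 0 on the right panel, and the STAT6 targets spread to both sides on the left. Of the 16 ligands shown, 7 were below 1 TPM on average in F/F PBS and passed the filter only through the Tat groups. The position of the ligands is thus not evidence about the list. With Tat, 6 of 18 negative regulators are higher and 7 lower as plotted. After scaling 12 are higher and 2 lower, beside 37.3% and 38% of all tested genes. In ΔMye Tat, 10 of 27 receptor chains are higher and 5 lower as plotted (38.8% and 8.87% of all tested genes). After scaling 5 are higher and 11 lower (15.9% and 19.4%).

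By the smallest root mean square difference of centred log2(TPM + 0.1) over the 17 libraries, the genes whose pattern was most like that of Jak2 were Cd274, which encodes PD-L1 (0.07), and St3gal5 (0.08). For Stat3 they were Trim25 (0.06) and Wars (0.06), and for Stat5a Tnip1 (0.10) and Nod1 (0.11). Cd274 was 165, 855 and 824 TPM on average in F/F PBS, F/F Tat and ΔMye Tat, and Trim25 was 66.1, 202 and 142. Stat6 was nearest to the lysosomal genes Cln3 (0.05) and Psap (0.06), and Stat4 to Carhsp1 (0.16) and the Fc receptor gene Fcgr1 (0.17), at a larger distance than any other member. Jak1 was nearest to Pdcd6ip (0.06) and Dennd5a (0.06), Jak3 to Cry1 (0.09) and Spi1 (0.09), Tyk2 to Sf3b3 (0.06) and Cul3 (0.07), and Stat5b to Dhx38 (0.05) and Ptpn11 (0.06).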

How the data were processed

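RNA was sequenced from 17 macrophage cultures, grouped by the labels. One item of the genotype, shared by all groups, is not reported here. The authors made the deposited TPM with Salmon and the Ensembl annotation of GRCm38, with no stated normalization between libraries. Salmon's version is not given in the sources used here. The authors' own comparison used edgeR on values other than TPM and was not repeated. Since TPM carry no counts, sequencing depth is unknown, and precision was judged from the libraries of a group alone. The 9 genes and all lists were chosen with earlier results of these data known.

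Tests used limma 3.58.1 (R 4.3.3) on log2(TPM + 0.1), for rows that reached 1 TPM in 5 or more libraries (3 groups in 1 fit, eBayes with trend, 14 residual degrees of freedom, Benjamini-Hochberg over the 10451 rows). A log2 difference is on this scale and understates changes of low genes. Calls were made at an adjusted p under 0.01, with a fold over 3 where stated. The fit was tested on simulated data. Scaled values are TPM divided by a factor per library, the median over genes of its ratio to the geometric mean. Ratios were compared by exact permutation tests (scipy 1.17.1). Named genes beside the 9 were, per list, the 3 highest and 3 lowest with Tat (fold over 3) and the 2 highest and 2 lowest between the Tat groups, at 10 TPM or more in the higher group, besides all negative regulators and the 2 nearest patterns of each member. Libraries of a group had at most 8 values above 0 in common, and none was dropped. Alternatives were other pseudocounts, filters and scalings, a fit of the compared groups only, robust eBayes, an exact Wilcoxon test and leaving out each library. Positions and shared 31-base words came from GENCODE M21 (GRCm38) and promoters from RefSeq.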

Additional observations from a re-analysis of the deposited data

Results flagged for a closer look

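Of 45 groups of values of the members and their ratios, 3 held a library that stood apart by Dixon's test at the 95% level, which chance gives in about 1 in 20 groups. Jak1 in library 23 of ΔMye Tat was 81.6 TPM against 101 to 107 in the other 4 libraries. Stat4 in library 9 of F/F Tat was 3.81 TPM against 4.82 to 5.37 in the other 5. The log2 ratio of Stat3 to Stat6 in library 4 of F/F PBS was -0.84 against -1.02 to -0.98.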

How the results depend on the processing

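No paired analysis was possible because the labels give the groups no shared replicate numbers. Jak2, Stat3, Stat4 and Stat5a were higher with Tat, Stat6 was lower and, between the Tat groups, Stat3 and Stat4 were lower in each limma alternative in which they were tested. Scaling decided the other members, and the cause of the shift was not tested. With median-ratio scaling and with quantile normalization, 8 members were higher and 1 lower with Tat, and 8 were higher in ΔMye Tat against F/F PBS. The log2 difference with Tat turned for Jak3 (0.32 and 0.53) and Tyk2 (0.60 and 0.48), as did that of Tyk2 in ΔMye Tat against F/F PBS (0.36 and 0.28). Between the Tat groups, median-ratio scaling turned Jak1 (-0.10), Jak2 (-0.16) and Stat6 (-0.058), and both turned Stat5a (-0.20 and -0.082) and Stat5b (-0.21 and -0.17). The number higher in ΔMye Tat against F/F Tat was 0 with either scaling, 1 without a filter on low values, 1 in a fit of the compared groups only and 1 to 3 with a library left out, 3 being reached without ΔMye Tat library 23, when Jak1, Jak3 and Stat6 passed. The number lower there was 4 with median-ratio scaling and 1 with a filter of 5 TPM, which removed Stat4. The exact Wilcoxon test called 0 higher and 0 lower, since its smallest adjusted p was 0.0118, and 3 members had an unadjusted p under 0.05.

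With each library left out in turn, the range of the log2 difference included 0 for Tyk2 with Tat (-0.052 to 0.011) and, between the Tat groups, for Tyk2 (-0.065 to 0.015), Stat5a (-0.032 to 0.092) and Stat5b (-0.047 to 0.095). It did so for the ratio of Jak3 to Jak1 in ΔMye Tat against F/F PBS (-0.075 to 0.018) and for Stat5a to Stat5b between the Tat groups (-0.018 to 0.040). Tyk2 to Jak1 with Tat ranged from -0.11 to -0.054 and passed at an adjusted exact p of 0.0341 without F/F PBS library 1. Against F/F PBS, without ΔMye Tat library 23, Jak1 (0.24) and Stat5b (0.22) passed, and Jak1 passed without F/F PBS library 5 (0.19). Depth is unknown from TPM, so counting error could not be set beside any value, which matters most for Stat4.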
